A study of Chlamydomonas reinhardtii with 16 samples.

Results

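Transcript levels of 7 nitrogen assimilation genes were followed over a cycle of light and dark in the green alga *Chlamydomonas reinhardtii*. The genes were taken by locus name from a list, and all 7 were found among the 17114 gene models of the files. They encode glutamine synthetase (GLN1 and GLN2), glutamate synthase (GSN1 and GSF1), nitrate reductase (NIT1), nitrite reductase (NII1) and a nitrate transporter (NRT2.1). RNA came from whole cells of strain dw15.1, with 16 libraries from 8 time points spaced 3 hr apart, and every library was made from a culture of its own. At each Zeitgeber time (ZT, hr since dawn) there were 2 cultures, called replicates A and B. All cultures were started from the same parent culture, were grown in Tris-acetate-phosphate medium, and had been under 12 hr of light per day for 48 hr when sampling began. The samples of ZT 3, ZT 6, ZT 9 and ZT 12 had been in light when taken and those of ZT 15, ZT 18, ZT 21 and ZT 0 in darkness. The methods place sampling between ZT 0 and ZT 21, so that ZT 0 set after ZT 21 joins the ends of the series. At that step culture age and time of day cannot be told apart. The labels name the strain and list no alleles, and neither they nor the methods give the ammonium left in the medium at sampling.

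Ammonium enters metabolism through glutamine synthetase, which joins it to glutamate to make glutamine. Glutamate synthase then makes glutamate again from glutamine and 2-oxoglutarate, with electrons from reduced ferredoxin (GSF1) or from NADH (GSN1). Cells that use nitrate import it with transporters such as NRT2.1, reduce it to nitrite with NIT1 in the cytosol, and reduce nitrite to ammonium with NII1 in the chloroplast. In *C. reinhardtii* ammonium represses the genes of nitrate use, and the medium of these cultures supplies ammonium. GLN1 is the cytosolic and GLN2 the plastid form of glutamine synthetase.

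Levels are given in FPKM (fragments per kilobase of transcript, relative to the mapped fragments of the library), as the authors calculated them and after scaling each library to a common 75th percentile. FPKM are shares of the RNA that was sequenced, so that a fall of a transcript and a rise of the remaining RNA cannot be told apart. The libraries held between 5.87e+06 fragments (ZT 12, replicate B) and 2.19e+07 fragments (ZT 18, replicate A). Replicates of a time point were sequenced in separate lanes. Tests are those of limma on log2(FPKM + 1) over all 12153 gene models with a mean of at least 1 FPKM, adjusted by Benjamini-Hochberg and called below 0.05. Fold changes on this scale understate the change of low values. GLN1, GLN2, GSF1 and GSN1 passed this filter, and NIT1, NII1 and NRT2.1 did not. Coordinates are those of genome version 4.3 as the files give them.

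The glutamate synthases had their extremes at opposite time points of the light period. GSF1 was highest 3 hr after lights on and lowest at ZT 9, whereas GSN1 was lowest 3 hr after lights on and highest at ZT 9. GSF1 changed 5.64-fold and GSN1 27.5-fold between their extreme time points. In both replicates the highest and the lowest value of each gene fell at the same time points.

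GSF1, the ferredoxin-dependent enzyme of the chloroplast (Cre12.g514050, chromosome 12, 3481680 to 3489960), stood at 26.0 FPKM in replicate A and 25.9 in replicate B at ZT 0. It was at 86.2 and 93.3 FPKM at ZT 3, and back at 19.6 and 17.0 at ZT 6. The morning peak was thus seen at a single time point, and its libraries did not overlap with any other. How many of all gene models had such a separation was not counted. From the afternoon on GSF1 stood at 15.95 and 15.86 FPKM at ZT 9, 30.8 and 27.5 at ZT 12, 23.1 and 19.1 at ZT 15, and 34.1 and 36.2 at ZT 18. At ZT 21 it reached 49.5 and 45.2 FPKM, a late-night level below that of ZT 3. Just before dawn, at ZT 0, the mean was 26.0 ± 0.0735 (SD, n = 2). The rise from ZT 0 to ZT 3 was 1.75 in log2 units (SE, the standard error, = 0.0955; limma, adjusted p = 4.46e-10), and the fall that followed to ZT 6 was -2.24 (SE = 0.0955, adjusted p = 4.78e-11). GSF1 was lower by 0.84 at ZT 0 than at ZT 21, both in darkness (adjusted p = 2.06e-06 from limma).

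GSN1, the NADH-dependent enzyme (Cre13.g592200, chromosome 13, 4296023 to 4308070), stood at 13.0 and 12.2 FPKM at ZT 0 and at 2.54 and 2.91 at ZT 3. It then was at 33.7 and 32.3 FPKM at ZT 6 and at 76.2 and 73.4 at ZT 9. The step from ZT 3 to ZT 6 was the largest of any of the 4 tested members. From its peak GSN1 declined at every time point sampled, through 49.4 and 48.0 FPKM at ZT 12, 44.8 and 38.4 at ZT 15 and 21.8 and 25.6 at ZT 18 to 13.9 and 13.5 at ZT 21. The fall from ZT 0 to ZT 3 was -1.87 in log2 units (SE = 0.0888; limma, adjusted p = 1.03e-10), and the rise to ZT 6 was 3.19 (SE = 0.0888, adjusted p = 1.86e-12). The low values at ZT 3 rested on 553 and 696 fragments. The range of GSN1 over the time points, 4.35 on the log2 scale, was larger than that of 98.3% of all gene models tested, against 85.8% for GSF1 with 2.42 (the median gene model had 1.24).

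**Figure D1:**
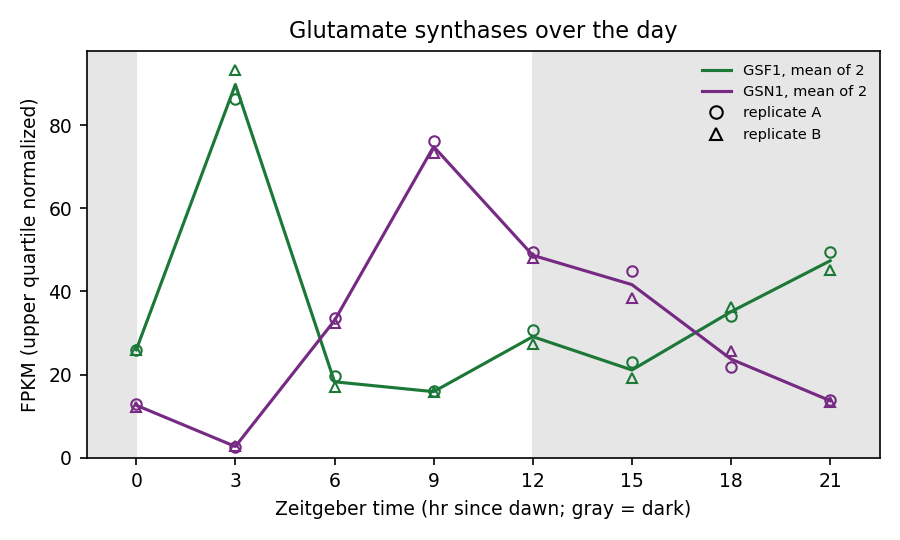
FPKM after upper quartile normalization (y axis, linear) of GSF1 and GSN1 against Zeitgeber time in hr (x axis, gray for darkness). Circles are replicate A, triangles replicate B and lines the mean of the 2 cultures. GSF1 peaks at ZT 3 (89.7 FPKM), where GSN1 is at 2.72, and GSN1 peaks at ZT 9 (74.8), where GSF1 is at 15.9.

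Ordered by level, GSN1 ran from ZT 3 through ZT 0, ZT 21, ZT 18, ZT 6, ZT 15 and ZT 12 to ZT 9. All neighbors in this order differed (adjusted p below 0.05 from limma) other than ZT 0 and ZT 21 (adjusted p = 0.282). GSF1 ran from ZT 9 through ZT 6, ZT 15, ZT 0, ZT 12, ZT 18 and ZT 21 to ZT 3. Here ZT 9 and ZT 6 (adjusted p = 0.102), ZT 6 and ZT 15 (0.0706), and ZT 0 and ZT 12 (0.136) did not differ beyond their spread. ZT 9 and ZT 15, not neighbors in this order, did differ (adjusted p = 0.00202 from limma). Of all gene models tested, 18.1% to 82.5% differed in the 28 pairs of time points. The orders of levels, here and for GLN2 and GLN1 below, were set from the same values that were tested. The p-values of neighbors do not take this into account.

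The ratio of both transcripts within a library shows the change of place directly, and no scaling between libraries enters the plain ratio of FPKM. GSF1 per GSN1 was 2.06 ± 0.0852 (SD, n = 2) at ZT 0, 33.0 ± 1.33 at ZT 3, 0.553 ± 0.0399 at ZT 6 and 0.213 ± 0.00481 at ZT 9. It stood below 1 in every library from ZT 6 to ZT 15 and above 1 in every library from ZT 18 to ZT 3. The sum of both transcripts varied less than either, between 38.1 and 96.2 FPKM per library, with high means at ZT 3 (92.5 ± 5.32) and ZT 9 (90.7 ± 2.08) and the lowest at ZT 0 (38.6 ± 0.633). Compared between ZT 3 and ZT 9, both in light, GSF1 was 2.42 higher at ZT 3 on the log2 scale (95% interval 2.22 to 2.63, adjusted p = 5.62e-12 from limma), and the difference of GSN1 was -4.35 (95% interval -4.54 to -4.16, adjusted p = 1.14e-14). Between these time points 77.3% of all gene models tested differed. The pair was chosen because it held the extremes of both genes, which these p-values and intervals do not take into account.

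The glutamine synthetases changed less than the glutamate synthases, and GLN2 was the more abundant form in all 16 libraries. GLN2 was highest at ZT 3, together with GSF1, and lowest at ZT 9. After scaling, GLN1 had a broad maximum in the middle of the light period and a further one 3 hr after lights off. With FPKM as deposited the one in darkness was the higher. The change between extreme time points was 2.27-fold for GLN2 and 1.76-fold for GLN1, and the median gene model tested changed 3.20-fold. On log2(FPKM + 1), the range of GLN2 was 1.18, close to the median of 1.24 and larger than that of 46.5% of gene models tested. That of GLN1 was 0.80, larger than that of 23.8%.

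GLN2, the plastid enzyme (Cre12.g530650, chromosome 12, 5323639 to 5326235), stood at 204 and 236 FPKM at ZT 0, 337 and 297 at ZT 3, 193 and 237 at ZT 6, and 138 and 140 at ZT 9. After scaling, the libraries of ZT 3 were above and those of ZT 9 below all others. With FPKM as deposited, replicate B of ZT 21 was above replicate B of ZT 3. How many of all gene models had such a separation was not counted. In the evening and at night GLN2 was at 186 and 162 FPKM at ZT 12, 192 and 177 at ZT 15, 191 and 181 at ZT 18 and 213 and 264 at ZT 21. Replicates of GLN2 differed by more than those of the other tested members, with an SD of up to 15.1% of the mean. The rise from ZT 0 to ZT 3 was 0.53 in log2 units (SE = 0.118; limma, adjusted p = 0.00100), and the falls to ZT 6 and from there to ZT 9 were -0.56 (adjusted p = 0.000570) and -0.62 (adjusted p = 0.000333). With FPKM as deposited, not scaled between libraries, the first of these was 0.21 with an adjusted p of 0.101 from limma, and the last was -0.30 (adjusted p = 0.0288). Among the levels of ZT 12, ZT 15, ZT 18, ZT 6, ZT 0 and ZT 21, in this rising order, no neighbors differed beyond their spread (adjusted p of 0.128 to 0.967). Some time points further apart in this order did differ. ZT 21 was above ZT 12 (adjusted p = 0.00276 from limma), ZT 15 (0.0171) and ZT 18 (0.0259). ZT 0 (0.0158) and ZT 6 (0.0294) were above ZT 12.

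The gene model beside GLN2 on chromosome 12, Cre12.g530600 (5319963 to 5323543), ends 96 bases before GLN2 begins. It had 0.748 to 1.05 times the FPKM of GLN2 in every library and was also highest at ZT 3 (297 FPKM) and lowest at ZT 9 (130 FPKM). It was singled out after its values had been seen. The library kit keeps strand and the methods allow 1 hit per read, but whether the counting used strand is not stated, and how reads were shared between these models was not tested.

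GLN1, the cytosolic enzyme (Cre02.g113200, chromosome 2, 5196886 to 5202460), stood at 56.1 and 54.4 FPKM at ZT 0, 76.1 and 82.3 at ZT 3, 98.7 and 91.7 at ZT 6 and 85.8 and 83.4 at ZT 9. It was back at 54.1 and 54.3 FPKM at ZT 12, while the lights were still on. In darkness it was at 85.9 and 79.1 FPKM at ZT 15, 58.1 and 60.7 at ZT 18 and 56.5 and 58.8 at ZT 21. After scaling, the libraries of ZT 15 thus lay within the range of those of ZT 3 to ZT 9, and those of ZT 12 were the lowest, close to those of ZT 0. With FPKM as deposited, GLN1 changed by 0.15 into ZT 9, -0.50 into ZT 12 and 0.68 into ZT 15, which was then the highest time point. GLN1 rose by 0.60 on the log2 scale from ZT 12 to ZT 15 (SE = 0.0692; limma, adjusted p = 2.67e-06), 1.52-fold in mean FPKM, and fell by 0.47 to ZT 18 (adjusted p = 0.000285). In the order of levels, ZT 12, ZT 0, ZT 21 and ZT 18 formed a low group in which no neighbors differed (adjusted p of 0.450 to 0.734), and the step up to the next, ZT 3, was 0.41 (adjusted p = 8.37e-05 from limma).

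**Figure D2:**
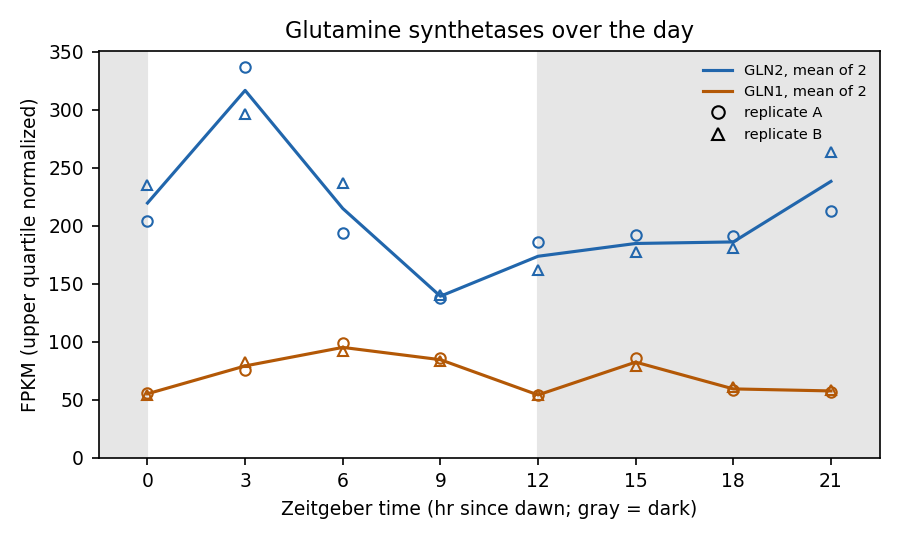
FPKM after upper quartile normalization (y axis, linear, from 0) of GLN2 and GLN1 against Zeitgeber time in hr (x axis, gray for darkness). Circles and triangles are the replicates and lines their mean. GLN2 peaks at ZT 3 (317 FPKM) and is lowest at ZT 9 (139), and GLN1 has maxima at ZT 6 (95.2) and ZT 15 (82.5).

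GLN2 per GLN1 was close to 4 around dawn, with 4.13 ± 0.508 (SD, n = 2) at ZT 21, 3.98 ± 0.494 at ZT 0 and 4.02 ± 0.578 at ZT 3. It was lowest at ZT 9, with 1.65 ± 0.0515, and stood at 3.21 ± 0.320 at ZT 12 and at 2.24 ± 0.00183 at ZT 15. The sum of both transcripts ranged from 216 to 413 FPKM. Both ratios were compared between 8 libraries in light and 8 in darkness by an exact two-sided permutation test. Libraries were shuffled singly, so that the 2 cultures of a time point counted as independent although they share their time of day. The p-values of this test can therefore be too small. For this test 1 FPKM was added to each transcript before the log2 ratio was taken, which draws ratios toward 0 where a transcript is low, as GSN1 is at ZT 3. The log2 ratio of GLN2 to GLN1 so computed was 1.38 ± 0.54 in light and 1.69 ± 0.38 in darkness (SD, n = 8 each), a difference of -0.31 (exact permutation p = 0.196, adjusted p = 0.392 over the 2 ratios). That of GSF1 to GSN1 was 0.22 ± 2.77 in light and 0.57 ± 1.04 in darkness (exact permutation p = 0.733, adjusted p = 0.733), and with 0.1 FPKM added the difference was -0.31 instead of -0.35 (exact permutation p = 0.796). Libraries in light held both the highest and the lowest of these log2 ratios of GSF1 to GSN1, 4.62 and -2.19, against -0.97 to 1.76 in darkness. The difference between light and darkness therefore depended on single libraries: leaving out replicate A or B of ZT 3 gave -0.98 or -0.97, and leaving out replicate A or B of ZT 9 gave -0.00576 or -0.0123.

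**Figure D3:**
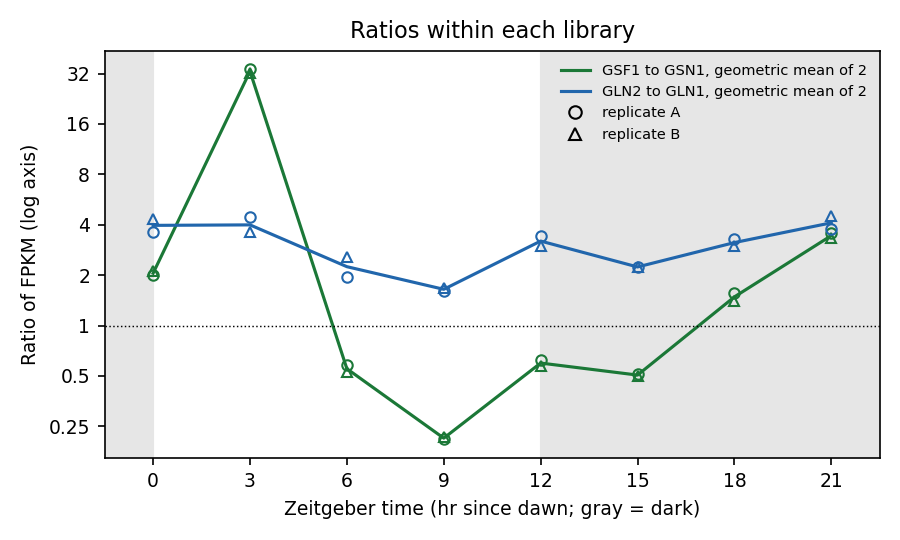
Ratio of FPKM within each library (y axis, log scale, dotted line at 1) for GSF1 to GSN1 and for GLN2 to GLN1 against Zeitgeber time in hr (x axis, gray for darkness). Points are the 2 replicates and lines their geometric mean. GSF1 to GSN1 drops from 33.0 at ZT 3 to 0.213 at ZT 9, while GLN2 to GLN1 stays between 1.61 and 4.48.

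All 4 tested members differed among the 8 time points (adjusted p of 3.08e-14 for GSN1, 2.17e-11 for GSF1, 2.45e-08 for GLN1 and 6.13e-06 for GLN2 from limma), as did 99.2% of all gene models tested. A 24-hr cosine wave was called in 3 of the 4 members, against 82.4% of all gene models tested. Sampling ran between ZT 0 and ZT 21 only, so that a repeating daily wave cannot be told apart from a course seen once. Its amplitude, from the fitted mean to the fitted peak, was 1.51 in log2 units for GSN1 (SE = 0.26, adjusted p = 0.000231) with a fitted peak at ZT 12.2, and 0.36 for GLN2 (SE = 0.09, adjusted p = 0.00596) with a fitted peak at ZT 0.554. The time points of the highest mean were ZT 9 and ZT 3, so that the fitted peaks did not fall on them. The wave of GLN1 had an amplitude of 0.27 (adjusted p = 0.0393 from limma), and that of GSF1 0.60 (SE = 0.22), with an adjusted p of 0.0532. Both values lay close to the threshold and crossed it in either direction. GLN1 no longer passed with FPKM as deposited (adjusted p = 0.170 from limma), with scaling by median ratios (0.0688), or without any 1 of the libraries of ZT 0, ZT 6, ZT 9, ZT 18 and ZT 21 or replicate B of ZT 3. GSF1 passed with FPKM as deposited (0.0365) and without any 1 of the libraries of ZT 0 and ZT 12 or replicate B of ZT 3. Without single libraries the adjusted p ranged from 0.0144 to 0.1003 for GLN1 and from 0.0247 to 0.105 for GSF1.

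Between light and darkness, GLN1 and GSN1 were higher in light, as were 44.5% of all gene models tested, and neither GLN2 nor GSF1 passed the test (39.5% of gene models were lower in light). GLN1 was 0.28 higher on the log2 scale (SE = 0.0346; limma, adjusted p = 1.76e-06) and GSN1 0.29 higher (SE = 0.0444, adjusted p = 1.72e-05). The differences of GLN2 and GSF1 were -0.03 (95% interval -0.16 to 0.09, adjusted p = 0.626) and -0.06 (95% interval -0.16 to 0.05, adjusted p = 0.284). In light GSN1 spanned 2.54 to 76.2 FPKM and in darkness 12.2 to 44.8, so that the groups overlapped and the mean difference joined its highest with its lowest values. GLN1 overlapped as well, with 54.1 to 98.7 FPKM in light and 54.4 to 85.9 in darkness, and its lowest libraries (ZT 12) were in light. The SE of these differences rests on the spread between replicates, not on that between time points. Without ZT 0 and ZT 12, the samples taken at the change of light, GSN1 was lower in light (-0.23, adjusted p = 0.00155 from limma). With FPKM as deposited GLN1 (0.03, adjusted p = 0.370) and GSN1 (0.05, adjusted p = 0.291) no longer passed, while GLN2 (-0.28, adjusted p = 0.000271) and GSF1 (-0.30, adjusted p = 2.65e-05) were lower in light. That scaling moved the median of all gene models between light and darkness from 0.03 to -0.16 on the log2 scale.

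From ZT 0 to ZT 3, GLN1 (0.51, adjusted p = 1.03e-05 from limma), GLN2 and GSF1 rose and GSN1 fell, when 32.6% of all gene models tested rose and 38.8% fell. From ZT 3 to ZT 6, GLN1 (0.26, adjusted p = 0.00333 from limma) and GSN1 rose and GLN2 and GSF1 fell, against 33.7% and 36.0% of gene models. From ZT 6 to ZT 9 only GSN1 rose (1.16, adjusted p = 3.18e-08), among 34.6% of gene models, while GLN2 and GLN1 fell with 28.8% of them. The change of GLN1 at this step (-0.17, adjusted p = 0.0460 from limma) was 0.15 with FPKM as deposited (adjusted p = 0.0581). With FPKM as deposited the earlier rises of GLN1 were also smaller, at 0.20 into ZT 3 (adjusted p = 0.0116 from limma) and 0.16 into ZT 6 (adjusted p = 0.0432). Scaled by median ratios, the change of GLN1 from ZT 6 to ZT 9 was -0.33. This change did not pass without any 1 of the libraries of ZT 0, ZT 9, ZT 12, ZT 18 and ZT 21 or replicate A of ZT 6, where the adjusted p was up to 0.252.

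From ZT 9 to ZT 12 the pattern turned: GLN2 (0.31, adjusted p = 0.0270 from limma) and GSF1 (0.83, adjusted p = 1.86e-06) rose with 28.6% of gene models, and GLN1 (-0.63, adjusted p = 1.12e-06) and GSN1 (-0.61, adjusted p = 2.14e-05) fell with 42.8%. Scaled by median ratios, the changes into ZT 12 were 0.55 for GLN2, -0.40 for GLN1 and -0.38 for GSN1, all past the threshold. In the first 3 hr of darkness GLN1 rose with 34.2% of gene models, and GSF1 (-0.45, adjusted p = 0.000757) and GSN1 (-0.22, adjusted p = 0.0369) fell with 31.9%. From ZT 15 to ZT 18, when 9.25% of gene models rose and 8.89% fell, 3 of the 4 members changed. GSF1 rose by 0.71 (adjusted p = 0.000115), GLN1 fell, and GSN1 fell by 0.79 (adjusted p = 2.65e-05), while GLN2 changed by 0.01 (95% interval -0.24 to 0.26). From ZT 18 to ZT 21 GLN2 (0.35, adjusted p = 0.0259) and GSF1 (0.42, adjusted p = 0.00227) rose with 25.0% of gene models and GSN1 (-0.74, adjusted p = 1.05e-05) fell with 20.2%. Between ZT 21 and ZT 0, the step that joins the ends of the series, only GSF1 passed. It was lower at ZT 0, as were 34.2% of gene models, while 33.0% were higher and none of the 4 members was. The rise of GLN2 into ZT 12 did not pass without either library of ZT 9 or replicate A of ZT 12 (adjusted p of up to 0.200 from limma). Its rise into ZT 21 did not pass with FPKM as deposited (0.0917), nor without either library of ZT 18 or replicate B of ZT 21 (up to 0.285). The fall of GSN1 into ZT 15 did not pass with FPKM as deposited (0.159), nor without either library of ZT 12 or replicate B of ZT 15 (up to 0.323).

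**Figure D4:**
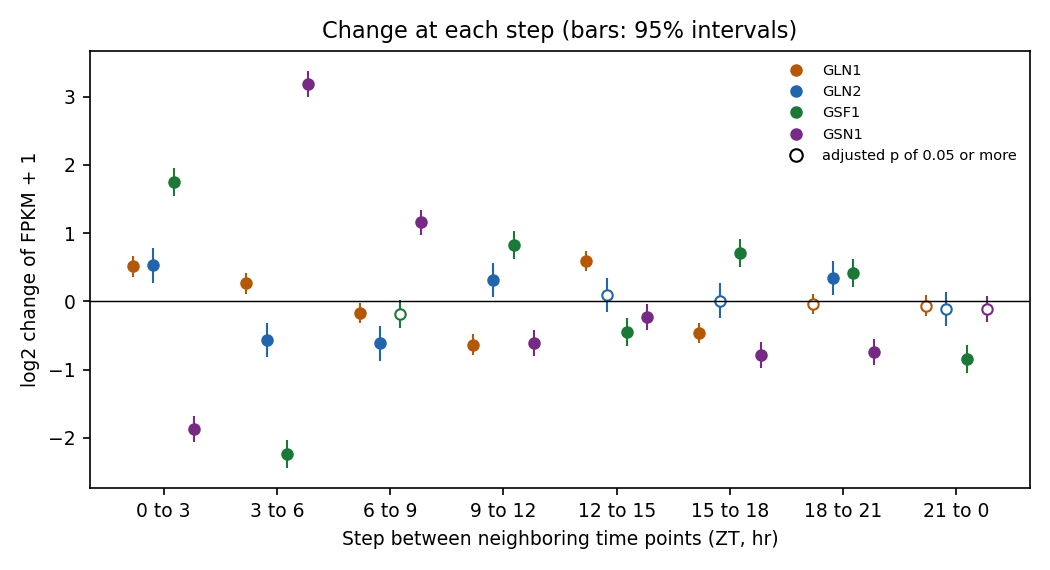
Change of log2(FPKM + 1) at each step between neighboring time points (y axis) for GLN1, GLN2, GSF1 and GSN1, with the steps along the x axis and 95% intervals of limma as bars. Filled points have an adjusted p below 0.05. The steps into ZT 3 and ZT 6 of GSF1 (1.75 and -2.24) and GSN1 (-1.87 and 3.19) point in opposite directions.

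Among the genes of nitrate use, NII1 was low but counted in every library, and NIT1 and NRT2.1 were at or near 0 throughout. NII1, the nitrite reductase (Cre09.g410750, chromosome 9, 3768258 to 3774201), stood at 0.0949 and 0.163 FPKM at ZT 0, 0.644 and 0.828 at ZT 3 and 0.564 and 0.485 at ZT 6. By ZT 9 it was at 0.0710 and 0.0841 FPKM, and at ZT 12 at 0.0819 and 0.0900. The libraries of the first 6 hr of light lay above all others, and how many of all gene models had such a separation was not counted. At night it was at 0.177 and 0.215 FPKM at ZT 15, 0.103 and 0.0992 at ZT 18 and 0.205 and 0.313 at ZT 21. The mean at ZT 3 was 9.49-fold that at ZT 9. These values rested on 68 and 96 fragments at ZT 3 and on 9 and 8 at ZT 9. The 2 libraries together gave 0.740 FPKM (95% Poisson interval 0.631 to 0.863, counting error only) at ZT 3 and 0.0766 (0.0446 to 0.123) at ZT 9.

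NII1 had a mean below 1 FPKM and thus did not enter the tests above. Fitted without the filter over 16815 gene models, it differed among time points (adjusted p = 2.94e-07 from limma), as did 91.0% of gene models, and passed the 24-hr test (0.0170), as did 74.6%. Its rise from ZT 0 to ZT 3 was 0.62 on log2(FPKM + 1) (adjusted p = 7.25e-07), when 27.8% of gene models rose, and its change from ZT 6 to ZT 9 was -0.50 (6.47e-06), when 22.7% fell. It was 0.18 higher in light (4.06e-05), as were 39.1% of gene models. In light NII1 spanned 0.0710 to 0.828 FPKM and in darkness 0.0949 to 0.313, so that the groups overlapped. The mean difference rested on ZT 3 and ZT 6, since at ZT 9 and ZT 12, also in light, NII1 was below every dark library. On the fragments themselves, in an alternative chosen after the data had been seen (limma with voom weights, no filter), it rose by 2.53 on the log2 scale from ZT 0 to ZT 3 (SE = 0.31, adjusted p = 1.06e-06), when 27.6% of gene models rose. From ZT 6 to ZT 9 it fell by 2.69 (SE = 0.37, adjusted p = 6.78e-06), when 22.6% of gene models fell. The time points of its highest and lowest mean, ZT 3 and ZT 9, were the same as those of GSF1 and GLN2. This timing was not limited to members. Of the 11 tested gene models within 25000 bases of the chromosome 9 members, 5 were also highest at ZT 3, and most of those were lowest at ZT 9. How many of all gene models had these time points was not counted.

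NIT1, the nitrate reductase (Cre09.g410950, chromosome 9, 3788601 to 3796073), was counted with 14 fragments in all 16 libraries together (95% Poisson interval 7.65 to 23.5). It was listed at 0 in 9 libraries, and the highest library (ZT 0, replicate B) held 3 fragments, or 0.0193 FPKM. Several laboratory strains of *C. reinhardtii* are known to carry mutations in NIT1. Whether dw15.1 does is not given in the labels or methods, and the part of genotype or of ammonium in these low values was not tested. NRT2.1 (Cre09.g410850, chromosome 9, 3780623 to 3784531) was counted with 5 fragments in all (95% Poisson interval 1.62 to 11.7) and listed at 0 in 12 libraries, with at most 2 fragments at ZT 9 in replicate A. A count of 3 fragments was worth 0.0111 to 0.0426 FPKM in NIT1 and 0.0218 to 0.0837 in NRT2.1, depending on the library. Neither reached a level at which a change over the day was detectable at this depth, and no fold change is given. Fitted without the filter, the adjusted p for a difference among time points was 0.847 for NIT1 and 0.952 for NRT2.1 (limma), and on fragments with voom weights 0.173 and 0.482.

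NII1, NRT2.1 and NIT1 lie next to each other on chromosome 9, with 2 gene models between them. These, Cre09.g410800 (3775998 to 3779931) and Cre09.g410900 (3784721 to 3786785), held 7 and 33 fragments in all libraries together. The model next to NIT1 on its far side, Cre09.g411000 (3796461 to 3799903), singled out after its values had been seen, was also low, with a mean of 0.331 FPKM, at most 0.492 in any library, and 403 fragments in all. Within 25000 bases of these members lay 14 other gene models, of which 11 passed the filter with means of 1.32 to 276 FPKM. All 11 differed among time points (99.2% of all gene models tested), and from ZT 0 to ZT 3 7 of them rose and 1 fell (32.6% and 38.8% of all gene models tested).

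**Figure D5:**
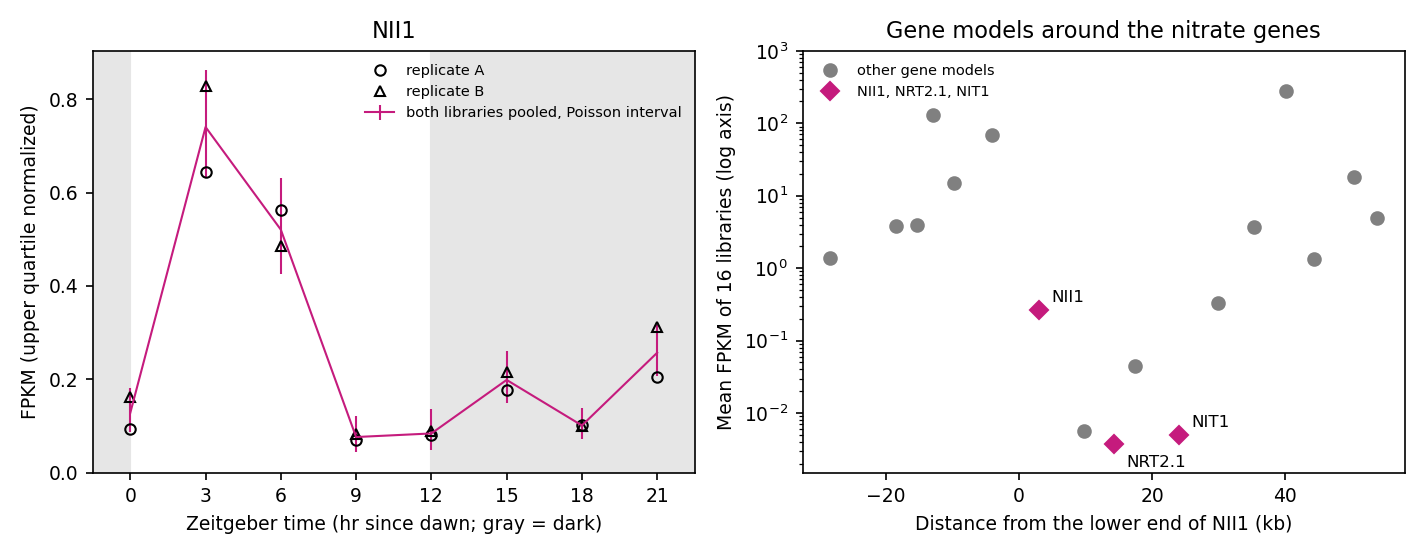
Left, FPKM of NII1 (y axis, from 0) against Zeitgeber time in hr (x axis, gray for darkness), with the replicates as points and both libraries pooled as a line with 95% Poisson intervals. Right, mean FPKM of 16 libraries (y axis, log scale) against the distance from the lower end of NII1 in kb (x axis) for the 3 members on chromosome 9 and the 14 gene models around them. NII1 is high at ZT 3 and ZT 6, and the 3 members and the pair of gene models between them have lower means than all the others.

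A list of 18 further loci was set for other glutamine synthetases, glutamate dehydrogenases, transporters of ammonium, nitrate and nitrite, the PII protein and a regulator of nitrate genes. Neither the files nor the reference annotate these loci with names, so that the list is given by its counts. The list holds 3 gene models described above, Cre12.g530600 beside GLN2 and Cre09.g410800 and Cre09.g410900 between the nitrate genes, so that its counts are not separate from theirs. Of the 18 loci 16 were in the files and 9 passed the filter. The other 7 had at most 1.98 FPKM in any library, and 4 of the 16 held under 10 fragments in every library. All 9 differed among time points (99.2% of all gene models tested), and 6 passed the 24-hr test (82.4% of all gene models tested). From ZT 0 to ZT 3, 5 of the 9 rose and 2 fell (32.6% and 38.8% of all gene models tested), and the median of the 9 changes was 0.34 (log2), against -0.06 over all gene models tested. In light 3 were higher and 3 lower (44.5% and 39.5% of all gene models tested). The locus Cre09.g388800, singled out after its values had been seen, fell by 2.93 from ZT 0 to ZT 3 (adjusted p = 1.32e-12 from limma), the same step at which GSN1 fell, and was lowest at ZT 3 with 0.234 FPKM and highest at ZT 0 with 8.43.

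Across the 8 time point means, GSF1 and GLN2 had a Pearson correlation of 0.82 on log2(FPKM + 1). GSN1 had -0.95 with GLN2 and -0.88 with GSF1. GLN1 had 0.15 with GSN1, -0.03 with GLN2 and -0.29 with GSF1, so that its course resembled none of the other 3. These values describe profiles that share libraries, and carry no test. The gene model most like GSF1 was Cre02.g129300 (r = 0.991 over 8 time points), at 236 FPKM at ZT 9 and 426 at ZT 3, a smaller change than that of GSF1. Cre14.g618400 was most like GLN2 (r = 0.986), with 8.66 FPKM at ZT 3 and 2.08 at ZT 9. Cre17.g742550 was most like GSN1 (r = 0.975), with 2.07 FPKM at ZT 3 and 13.6 at ZT 9, and Cre04.g221000 most like GLN1 (r = 0.969), at 0.760 to 1.47 FPKM. A correlation above 0.9 was reached by 193 gene models with GLN2, 124 with GSN1, 88 with GSF1 and 16 with GLN1.

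Compared by their mean over all libraries, GLN2 (209 FPKM) exceeded 98.9% of all 17114 gene models, GLN1 (71.0 FPKM) 97.1%, GSF1 (35.3 FPKM) 94.7% and GSN1 (31.4 FPKM) 94.0%. NII1 had a mean of 0.264 FPKM, NIT1 of 0.00496 and NRT2.1 of 0.00375. The genes of ammonium assimilation thus stood among the abundant transcripts of these cultures and those of nitrate use at the lower end.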

How the data were processed

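RNA sequencing of 16 cultures was analysed, with time points and replicates taken from the labels. The authors mapped reads with TopHat to genome version 4.3 and computed FPKM per gene model with Cufflinks (versions not given in the sources used here). The deposited FPKM are not scaled between libraries; here each was multiplied by a factor (0.687 to 1.01) to the 75th percentile of replicate B at ZT 6. A deposited table of 50 gene models with FPKM normalized by the authors differed from the values scaled here by at most 0.0109% (median per library). At ZT 6 the file letters differ from the titles, and the titles were used. Fragments were recovered from the Cufflinks limits; 100% of values under 300 fragments were within 0.05 of a whole number.

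In R 4.3.3, limma 3.58.1 (with a variance trend) was used for a factor of 8 time points, a 24-hr wave, light against dark and steps between time points. The scripts were tested on simulated data. Python 3.11.15 with scipy 1.17.1 gave the permutation tests. All 7 members are named. Further loci are named where they lie between members, where they are the single gene model most like a tested member, or, as marked, after their values were seen. Members and lists were chosen with earlier results of these data known. Replicates are separate cultures from 1 parent culture. Of 17114 gene models 12646 matched a locus tag of the reference, which carries no gene names; symbols of the members come from the list, and no sequences were used. The rule for naming further loci by protein identity could not be applied, since no protein sequences were given. Alternatives were no scaling, median-of-ratios scaling, other filters and pseudocounts, voom weights, a replicate block, no ZT 0 and ZT 12, a wider window, and each library left out.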

Additional observations from a re-analysis of the deposited data

How the results depend on the processing

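The 4 tested members differed among time points under every alternative tried. With FPKM as deposited the count of members that differed between light and dark was still 2, but they were other members, and the step of GLN1 from ZT 6 to ZT 9 reversed to 0.15. Without ZT 0 and ZT 12 the light minus dark difference on the log2 scale reversed to -0.23 in GSN1 and to 0.0702 in GLN2, and that of the ratio of GSF1 to GSN1 to 0.10. Without single libraries the last of these ranged from -0.98 to -0.00576. Leaving out single libraries moved the difference of GLN2 between -0.0698 and 0.00701, above 0 without replicate A of ZT 6 or replicate B of ZT 21, and the members with a 24-hr wave between 2 and 4. A minimum mean of 5 FPKM tested 5011 gene models, of which 4992 differed among time points, 4174 had a 24-hr wave and 4390 differed between light and dark. A window of 50000 bases held 19 tested gene models near the nitrate genes, all of which differed among time points. With a replicate block, 2 members passed the 24-hr test, GLN1 being lost at an adjusted p of 0.0505 and its step from ZT 6 to ZT 9 at 0.0531 (limma). Of 28 pairs of time points, 10 had replicate deviations that correlated above 0.1. The correlations ran from -0.27 to 0.33, with a median of -0.03. The lower counts at 5 FPKM and the higher count in the wider window follow from the number of gene models tested; for the other changes the cause was not tested. Depth limits NIT1 and NRT2.1, for which no alternative adds fragments.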
